A study of Oryza sativa Japonica Group with 4 samples.

Results

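The genes described here encode the water channels (aquaporins) and the potassium transporters of rice, and their transcripts were measured in seedling roots with and without ammonium nitrate. Members were chosen by gene name: *PIP*, *TIP*, *NIP* and *SIP* for the water group, and *HAK*, *HKT* and *AKT* for the potassium group. The names matched 62 of 39387 genes, of which 29 belonged to the water group and 33 to the potassium group. On the array, 25 aquaporin genes and 24 potassium transporter genes had a probe set of their own, so that 49 of the 17905 genes read by the array are described. Each gene was represented by its brightest probe set, meaning the set of oligonucleotide probes with the highest mean over the arrays. The other 13 genes were not analysed here because no probe set is paired with them in the annotation: *NIP1-2*, *NIP3-3*, *PIP2-3*, *TIP5;1*, *HAK6*, *HAK19*, *HAK24*, *HKT1;1*, *HKT1;3*, *HKT1;4*, *HKT2;1*, *HKT2;3* and *HKT2;4*.

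All seedlings were of the japonica cultivar TNG67, germinated for 3 days in the dark at 30 °C and then grown for 2 weeks in hydroponics without nitrogen. At 17 days they were moved for 30 min either to fresh nitrogen-free solution (−N) or to solution with 1.43 mM ammonium nitrate (+N), so that both groups had been starved of nitrogen and both were transferred. RNA of roots was hybridized to 4 Affymetrix Rice Genome Arrays, 2 biological replicates in each group. A change is given as +N over −N, and a gene was called when it differed by at least 2-fold with an unadjusted p under 0.05 in limma, a linear model with moderated variance. Nothing in the labels says that the replicates were separate cultures, and p-values here reflect only how far these arrays differ. The smallest two-sided p of an exact permutation test between groups of 2 is 0.333, so none was used. Whole roots were used, and a change in the RNA of a cell type cannot be told apart from a change in the number of its cells.

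Aquaporins are membrane pores that let water pass along an osmotic or pressure gradient. The PIP proteins sit in the plasma membrane, where members of the PIP1 group are known to need PIP2 partners to reach the cell surface, and the TIP proteins sit in the vacuolar membrane. NIP proteins, named after nodulin 26 of soybean, carry small neutral solutes such as silicic acid and boric acid, and SIP proteins are found in the endoplasmic reticulum in Arabidopsis. Potassium enters root cells through channels such as AKT1 and through HAK transporters, which couple it to protons and work at low external potassium. HKT transporters carry sodium, or sodium together with potassium. Nitrogen supply is known to touch both systems: nitrate raises the hydraulic conductance of roots in several species, and ammonium competes with potassium for uptake by HAK transporters in several plants.

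No aquaporin and no potassium transporter was called. The count was 0 of 25 aquaporin genes and 0 of 24 potassium transporter genes, against 180 genes called higher, 1.01%, and 4 called lower, 0.0223%, of all 17905 genes (either direction 1.03%). In limma 0 members had an unadjusted p under 0.05, a level that 2.2% of all genes passed, and the smallest was 0.0863 for *TIP3-1* in the water group and 0.0990 for *AKT1* in the potassium group. After Benjamini-Hochberg adjustment 0 genes passed over the whole array, and the adjusted p of every member was 1. An ordinary linear model without moderated variance also called 0 members. On the log2 scale the median change was −0.08 over the aquaporins, with a range of −0.61 to 0.32, and 0.13 over the potassium transporters, with a range of −0.33 to 1.72. The median over all genes was 0.02. Among the aquaporins 8 changes lay above 0 and 17 below, and among the potassium transporters 16 lay above 0 and 8 below. Over all 17905 genes, 9602 lay above 0 and 8268 below.

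The changes of some members depended on single arrays. With −N replicate 1 left out, the log2 changes of *NIP2-2*, *PIP2-6*, *PIP2-8* and *TIP2-1* were −1.46, −1.21, −1.19 and −1.30. That of *HAK17* was 3.15, and the median over all probe sets was −0.18. With −N replicate 2 left out, the log2 change of *AKT1* was 1.26, and the median over all probe sets was 0.17. In those fits the group left with 1 array is assumed to vary as much as the other group. With the arrays brought to a common median, *HAK16* was called higher, as it was when dim probe sets were left out of the fit. Those fits called 358 of 57194 and 316 of 24396 probe sets.

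**Figure D1:**
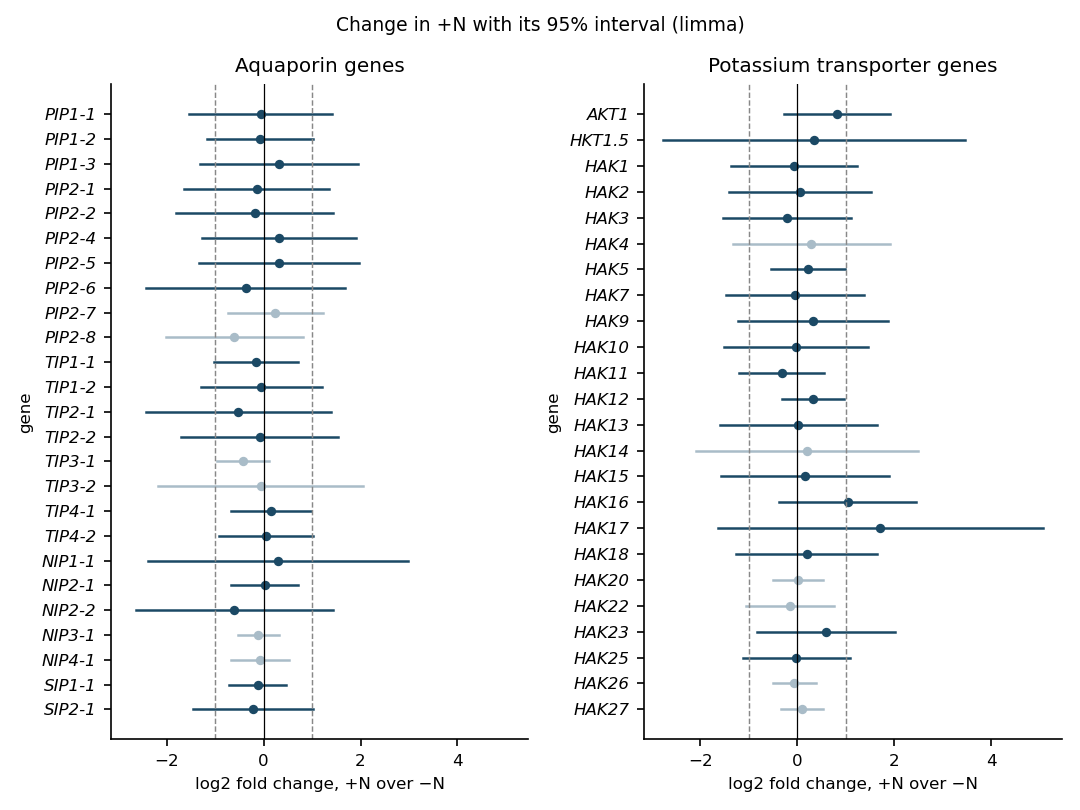
The log2 fold change of +N over −N (horizontal axis) is shown for each aquaporin gene (left) and each potassium transporter gene (right), with its 95% interval from limma, 2 arrays in each group. Dashed lines mark a 2-fold change, pale symbols are genes with a mean intensity under 32, and the interval of every gene includes 0.

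These intervals were wide, and their width depended on the fit. The standard error of the log2 fold change had a median of 0.47 in both groups and ran from 0.14 to 1.12 over all members. A 95% interval that lay wholly within a 2-fold change in either direction was reached by 6 of the 25 aquaporins and 5 of the 24 potassium transporters, against 39.9% of all genes. The 6 aquaporins were *NIP2-1*, *NIP3-1*, *NIP4-1*, *SIP1-1*, *TIP3-1* and *TIP4-1*, and the 5 potassium transporters were *HAK5*, *HAK12*, *HAK20*, *HAK26* and *HAK27*. Of these 11 genes 6 were dim, with a mean intensity under 32 (*NIP3-1*, *NIP4-1*, *TIP3-1*, *HAK20*, *HAK26* and *HAK27*), and 4 of the 6 had arrays raised to the lower limit of 5.16, which narrows an interval. At a mean intensity of at least 32, the counts were 3 of 19 aquaporins and 2 of 18 potassium transporters, against 38.4% of the genes at that level. With the arrays brought to a common median, the counts were 16 of 25 and 17 of 24. They were 11 and 15 with quantile normalization, 18 and 18 with the replicate number as a block, and 3 and 3 in an ordinary linear model. The share of all genes was not worked out for these fits. Counts were 1 to 3 aquaporins and 2 to 4 potassium transporters with a single array left out, and 3 and 1 with dim probe sets left out. The intervals of the other members reached past a 2-fold change in at least 1 direction.

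Measured intensities spanned a wide range within each family. A mean log2 intensity of 5, an intensity of 32, was taken as the lower limit for values read with some confidence, and 19 aquaporins and 18 potassium transporters reached it. The 12 genes under it were *NIP3-1*, *NIP4-1*, *PIP2-7*, *PIP2-8*, *TIP3-1* and *TIP3-2* in the water group and *HAK4*, *HAK14*, *HAK20*, *HAK22*, *HAK26* and *HAK27* in the potassium group. Values under 5.16, the 5th percentile over all arrays, were set to it before the log was taken. That concerned *NIP3-1*, *NIP4-1*, *HAK26* and *HAK27* on some of the arrays and no member on all of them.

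**Figure D2:**
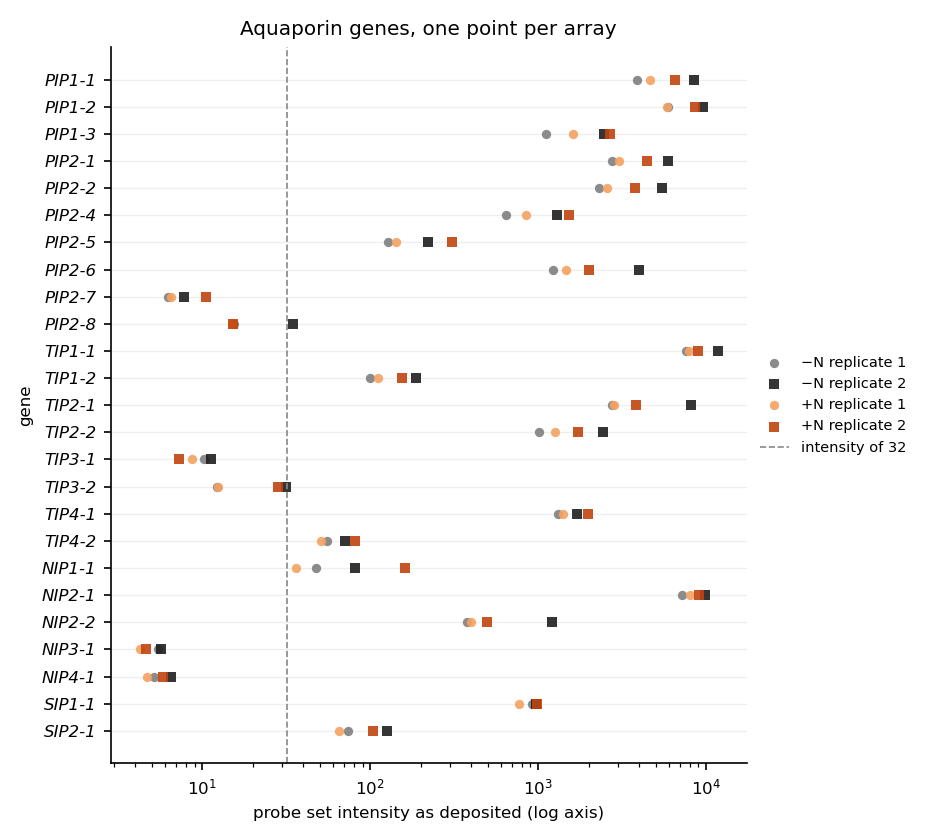
Probe set intensity as deposited (horizontal log axis) is shown for the 25 aquaporin genes, with 1 point for each of the 2 −N and 2 +N arrays. The dashed line marks an intensity of 32, and 3 genes, all of them dim (*NIP3-1*, *PIP2-8* and *TIP3-1*), had both +N arrays below both −N arrays, as did 5.12% of all genes.

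All 3 *PIP1* genes were well above the dim limit. *PIP1-1*, which was not picked by the naming rule, read 3904 and 8520 on the −N arrays of replicates 1 and 2, and 4650 and 6534 on the +N arrays. For *PIP1-2* the values were 5895 and 9532 in −N and 5886 and 8599 in +N. In both genes the +N arrays lay within or at the edge of the range of the −N arrays, and the log2 changes were −0.07 and −0.08. *PIP1-3*, also called *RWC3*, gave 1115 and 2478 in −N and 1605 and 2662 in +N. Its groups overlapped as well, and its log2 change of 0.31 had a standard error of 0.54.

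Of 8 *PIP2* genes, 7 were measured. The highest change among those above the dim limit was that of *PIP2-4*, with 643 and 1293 in −N and 844 and 1532 in +N, a log2 difference of 0.32 ± 0.53 (SE). The lowest was that of *PIP2-6* (NCBI gene 4335226), with 1231 and 3958 in −N and 1458 and 1996 in +N. Both +N values of *PIP2-6* fell between its −N values, and the log2 difference was −0.37 ± 0.69 (SE). Leaving out −N replicate 1 gave a difference of −1.21 for *PIP2-6* (unadjusted p of 0.0495 in limma), and leaving out −N replicate 2 gave 0.47.

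*PIP2-8* stood under the dim limit. The arrays other than −N replicate 2 gave nearly the same value, 15.4 for −N replicate 1 and 15.0 and 15.3 for the +N arrays, while −N replicate 2 gave 34.5. The groups did not overlap, but by a margin of less than 1 unit of intensity, and the log2 difference was −0.60 ± 0.47 (SE). Both +N arrays lay below both −N arrays in 3 of the 25 aquaporins (*NIP3-1*, *PIP2-8* and *TIP3-1*), against 5.12% of all genes, and in 0 of the 19 above the dim limit, against 4.32% of the genes at that level. Leaving out −N replicate 1 gave −1.19 for *PIP2-8* (unadjusted p of 0.0220 in limma), and leaving out −N replicate 2 gave −0.020 (unadjusted p of 0.937). *PIP2-7* was dim on every array, between 6.24 and 10.5.

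*PIP2-1*, *PIP2-4* and *PIP2-5* follow one another on the chromosome, with 0 other protein-coding genes between them in the gene table. *PIP2-1* gave 2748 and 5948 in −N and 3011 and 4452 in +N, and *PIP2-5* gave 127 and 222 in −N and 142 and 308 in +N. The −N and +N arrays overlapped in all 3 neighbours, and their log2 changes were −0.14, 0.32 and 0.31 in the order named. A probe set that reads both *PIP2-1* and *PIP2-5* was left out of these values. *PIP2-2* followed the same course as *PIP2-1*, with 2299 and 5433 in −N and 2568 and 3753 in +N. The log2 difference of *PIP2-2* was −0.19 ± 0.54 (SE). *PIP2-1*, *PIP2-2* and *PIP2-5* lay outside the naming rule and were added after their values had been seen.

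Among the 8 measured *TIP* genes, *TIP2-1* (NCBI gene 4330207) had the lowest change. Its intensities were 2752 and 8082 in −N and 2835 and 3804 in +N. The −N array of replicate 2 stood apart from the other 3, and both +N values lay between the −N values. The log2 difference was −0.52 ± 0.64 (SE). Leaving out −N replicate 1 made it −1.30 (unadjusted p of 0.0395 in limma), and leaving out −N replicate 2 made it 0.25. A second probe set of *TIP2-1* gave 734 and 4084 in −N and 738 and 917 in +N, with the same array apart and a log2 difference of −1.07 ± 0.97 (SE). TIP2 proteins of Arabidopsis conduct ammonia as well as water.

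*TIP4-1* had the highest change of the *TIP* genes above the dim limit, with 1311 and 1700 in −N and 1401 and 1972 in +N. The groups overlapped, and its log2 difference was 0.16, with a 95% interval of −0.67 to 0.98. *TIP3-1*, of a group known from the protein storage vacuoles of seeds, was dim, at 10.2 and 11.3 in −N and 8.70 and 7.31 in +N. Its −N arrays were both above its +N arrays, and the log2 difference was −0.43 ± 0.18 (SE), at intensities under the dim limit. The remaining *TIP* genes (*TIP1-1*, *TIP1-2*, *TIP2-2*, *TIP3-2* and *TIP4-2*) had log2 changes between −0.17 and 0.04.

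The *NIP* group holds the silicon channels of rice. *NIP2-1*, known as *Lsi1*, the silicic acid channel of the root exodermis and endodermis, was outside the naming rule and gave 7224 and 9869 in −N and 8058 and 9089 in +N. Both +N values lay between the −N values, and the log2 difference was 0.02, with a 95% interval of −0.68 to 0.71. *NIP2-2* (NCBI gene 4340558), known as *Lsi6*, which moves silicic acid out of the xylem, gave 377 and 1217 in −N and 398 and 496 in +N. Here 3 arrays stood close together and the −N array of replicate 2 stood apart. The log2 difference of *NIP2-2* was −0.61 ± 0.68 (SE). It became −1.46 with −N replicate 1 left out (unadjusted p of 0.0230 in limma) and 0.24 with −N replicate 2 left out. *Lsi2*, the silicic acid exporter that works with Lsi1 and belongs to another family, showed the same array apart, with 596 and 1486 in −N and 768 and 721 in +N.

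*NIP1-1*, whose protein lets arsenite through, had its extreme array in the other group. It gave 47.4 and 80.8 in −N and 36.0 and 161 in +N, so that the +N arrays lay outside the −N arrays on both sides. Its log2 difference was 0.30 ± 0.90 (SE). Leaving out +N replicate 2 made it −0.78, and leaving out +N replicate 1 made it 1.38. *NIP3-1*, also called *DTE1* and known as a boric acid channel, was at the limit of measurement, with 5.47 and 5.68 in −N and 4.25 and 4.60 in +N before the lower limit was set.

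Both *SIP* genes were measured. *SIP1-1* varied little between arrays, with 925 and 968 in −N and 766 and 981 in +N, and its log2 difference was −0.13, with a 95% interval of −0.72 to 0.46. *SIP2-1* gave 74.0 and 125 in −N and 65.3 and 104 in +N, a log2 difference of −0.22 ± 0.41 (SE). The groups of both genes overlapped.

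**Figure D3:**
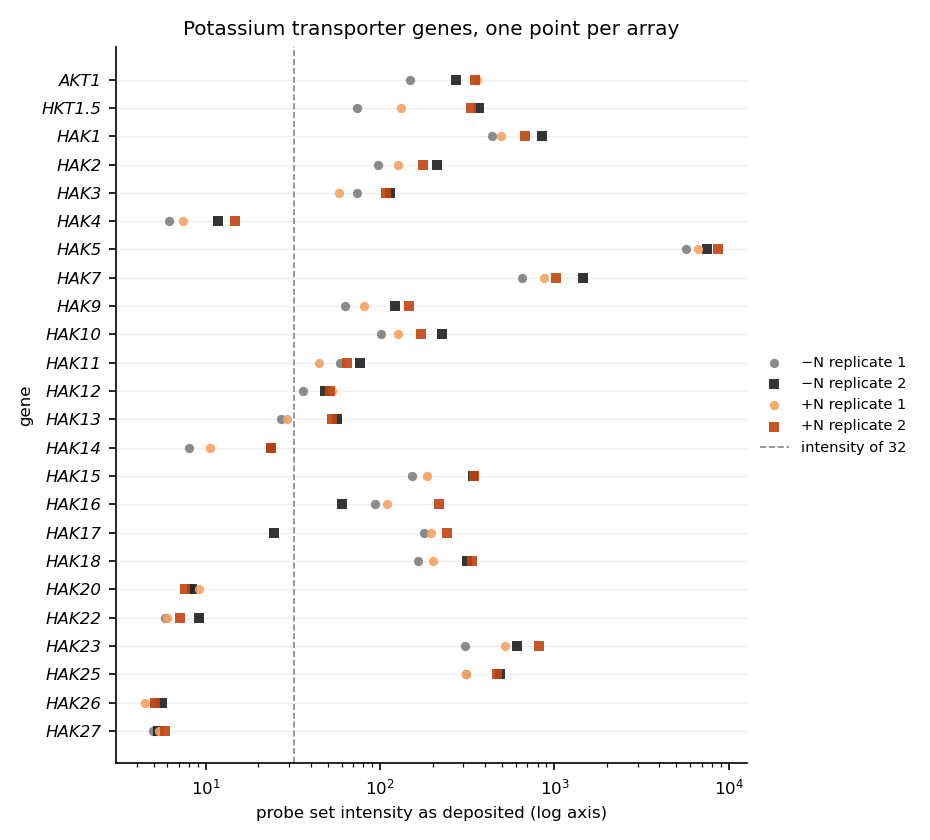
Probe set intensity as deposited (horizontal log axis) is shown for the 24 potassium transporter genes, with 1 point for each of the 2 −N and 2 +N arrays. The dashed line marks an intensity of 32, and both +N arrays of *AKT1*, *HAK12*, *HAK16*, *HAK17* and the dim *HAK27* lay above both −N arrays.

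In the potassium group 5 of 24 genes had both +N arrays above both −N arrays (*AKT1*, *HAK12*, *HAK16*, *HAK17* and *HAK27*), and 0 had both below. Over all genes, 9.23% had both +N arrays above and 5.12% had both below, and the shares were 10.4% and 4.32% of the genes above the dim limit, which *HAK27* did not reach. No aquaporin had both +N arrays above. *HAK16* and *HAK17* changed by more than 2-fold in the mean, and none of the 5 was called.

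*AKT1* (NCBI gene 4326245), the inward-rectifying potassium channel of the root, gave 148 and 271 in −N and 357 and 351 in +N. The +N arrays were close to each other and above both −N arrays, which differed from each other by 1.83-fold. Its change was 1.77-fold, with a 95% interval of 0.831- to 3.77-fold. Compared array by array at the same replicate number, the change was 2.42-fold in replicate 1 and 1.30-fold in replicate 2. With the arrays brought to a common median, the log2 difference of *AKT1* was 0.85 (unadjusted p of 0.030 in limma). With quantile normalization it was 0.76 (unadjusted p of 0.040 in limma). Both stayed short of the 2-fold limit for a call. The unadjusted p was 0.0897 with the replicate number as a block in limma and 0.200 in an ordinary linear model. With −N replicate 2 left out, the log2 difference was 1.26, past the 2-fold limit, in a fit with 1 −N array. It was 0.39 with −N replicate 1 left out, so its size depended on the −N array used.

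AKT1 is switched on by phosphorylation by the kinase CIPK23 together with a calcium sensor of the CBL family. *CIPK23* gave 1130 and 1473 in −N and 977 and 1277 in +N, with overlapping groups and a log2 difference of −0.21 ± 0.25 (SE). *CBL9* had a log2 difference of 0.47 ± 0.41 (SE), and *CBL1* was not analysed here for want of a probe set. Of these measured activators of *AKT1*, 0 of 2 were called.

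*HKT1.5*, also known as *SKC1*, encodes the transporter that takes sodium back out of the xylem. It was the only *HKT* gene of 7 with a probe set of its own. The arrays gave 73.6 and 367 in −N and 132 and 331 in +N, so that in each group the array of replicate 2 was far brighter, by 4.98-fold in −N and 2.51-fold in +N. The groups overlapped, and the log2 difference of 0.35 had a standard error of 1.04. Leaving out −N replicate 1 made it −0.81, and leaving out −N replicate 2 made it 1.51.

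Of 25 *HAK* genes, 22 were measured. Of their log2 changes 14 lay above 0 and 8 below, against 9602 and 8268 over all 17905 genes. *HAK1* and *HAK5*, the high-affinity potassium uptake transporters of rice roots, were chosen for their known role after the values had been seen. *HAK5* gave 5694 and 7486 in −N and 6676 and 8683 in +N, and its log2 difference was 0.22, with a 95% interval of −0.54 to 0.98. *HAK1* gave 435 and 845 in −N and 493 and 678 in +N. The groups of both overlapped, and the difference of *HAK1* was −0.07, with an interval of −1.37 to 1.23.

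*HAK17* (NCBI gene 4347211) had the highest change of all members, and it rested on a single array. Its intensities were 178 and 24.4 in −N and 196 and 240.2 in +N, so that 3 arrays lay within a narrow range and the −N array of replicate 2 lay far below them. A second probe set of *HAK17* showed the same order, with 135 and 30.4 in −N and 138 and 178 in +N. The log2 difference was 1.72, with a 95% interval of −1.64 to 5.07, and it was 1.29 for the second probe set. The change was 1.10-fold in replicate 1 and 9.84-fold in replicate 2. With −N replicate 1 left out, the log2 difference was 3.15 (unadjusted p of 0.00335 in limma). With −N replicate 2 left out, it was 0.28.

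*HAK16* (NCBI gene 4333298), linked in rice to potassium uptake and salt tolerance, gave 93.0 and 60.7 in −N and 109.5 and 219 in +N. The groups did not overlap, and the +N array of replicate 2 was the brightest. Its change was 2.06-fold, with a 95% interval of 0.771- to 5.50-fold (unadjusted p of 0.105 in limma). With the arrays brought to a common median, the log2 difference was 1.06 (unadjusted p of 0.0469 in limma), and with dim probe sets left out before the fit the unadjusted p was 0.0467. The adjusted p was 1 in both. It was not called with quantile normalization (unadjusted p of 0.130), with the replicate number as a block (0.163) or in an ordinary linear model (0.218). Leaving out single arrays moved the log2 difference from 0.54 (without +N replicate 2) to 1.54 (without +N replicate 1), and *HAK16* was not called in any of those 4 fits. *HAK27* lies next to *HAK16* on the chromosome, with 0 protein-coding genes between them in the gene table, and stayed near the lower limit, between 4.98 and 5.79.

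*HAK12* had a narrower spread, with 35.9 and 48.3 in −N and 52.6 and 51.6 in +N. Both +N arrays lay above both −N arrays by a small margin, and the log2 difference was 0.32, with a 95% interval of −0.32 to 0.97. *HAK23* gave 306 and 610.2 in −N and 524 and 812 in +N, with overlapping groups and a log2 difference of 0.59 ± 0.48 (SE). At the same replicate number, its change was 1.71-fold in replicate 1 and 1.33-fold in replicate 2. With the replicate number as a block its unadjusted p was 0.0382 in limma, short of the 2-fold limit for a call. Leaving out single arrays moved its log2 difference from 0.096 to 1.09. *HAK11* had the lowest change of the *HAK* genes above the dim limit, with 58.7 and 76.8 in −N and 44.5 and 64.6 in +N. Its groups overlapped, and its log2 difference was −0.33 ± 0.29 (SE). Apart from *HAK11*, *HAK12*, *HAK16*, *HAK17* and *HAK23*, log2 changes of *HAK* genes lay between −0.20 and 0.32.

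Other potassium channels of the list were the tandem-pore channels of the TPK and KCO family, which sit mostly in vacuolar membranes. Of 6 such genes 4 were measured and 0 were called. *TPK2* gave 65.0 and 95.4 in −N and 141 and 162 in +N, with both +N arrays above both −N arrays. Its change was 1.92-fold, with a 95% interval of 1.10- to 3.34-fold and an unadjusted p of 0.0324 in limma, short of the 2-fold limit for a call, and its adjusted p was 1. The log2 differences of *KCO1*, *TPK3* and *KCO2* were 0.57, 0.20 and −0.57, and none had an unadjusted p under 0.05.

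**Figure D4:**
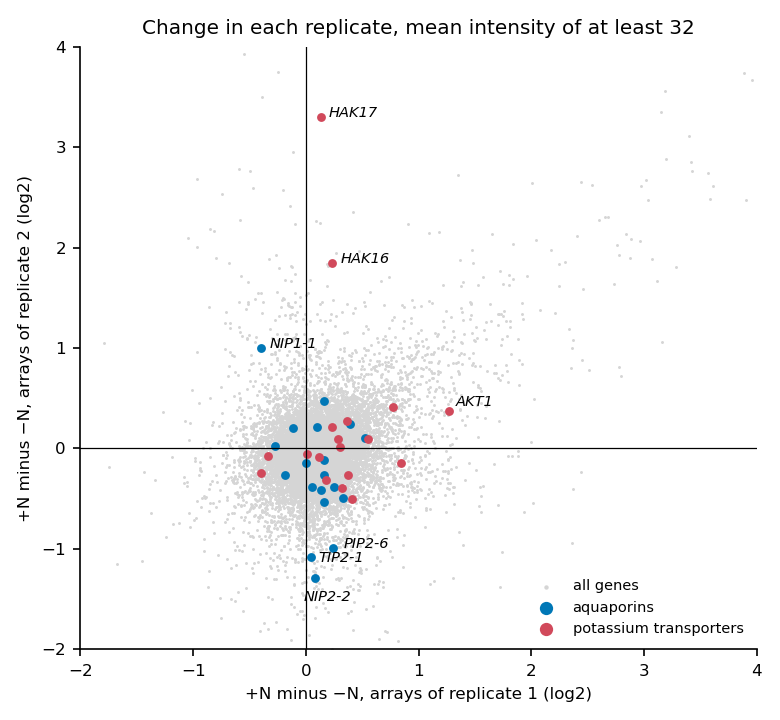
The log2 change of +N over −N between the arrays of replicate 1 (horizontal axis) and between those of replicate 2 (vertical axis) is shown for the 37 members with a mean intensity of at least 32, over all 13905 genes at that level in grey. Axes run from −2 to 4, 51 genes fall outside, and 10 of 19 aquaporins lie to the lower right, higher in replicate 1 and lower in replicate 2.

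The sign of the change often differed between replicate numbers, in both groups and over all genes. Of the 19 aquaporins above the dim limit, 4 were higher in +N at both replicate numbers, 2 were lower at both, 10 were higher in replicate 1 and lower in replicate 2, and 3 were the reverse. Of all 13905 genes at that level, 4432 were higher at both replicate numbers and 2716 were lower at both. The order higher then lower was seen in 33.2% of all genes at that level and its reverse in 13.4%. In the genes with a mean log2 intensity of at least 10, the first order was seen in 25.7%. Median log2 changes of these aquaporins were 0.13 in replicate 1 and −0.27 in replicate 2, against 0.10 and −0.03 over all genes at that level. Of 18 potassium transporters, 9 were higher at both numbers, 2 were lower at both and 7 were higher in replicate 1 and lower in replicate 2. Their medians were 0.30 and −0.02.

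The replicates differed more between the −N arrays than between the +N arrays in the median. In −N, 9 of 19 aquaporins and 6 of 18 potassium transporters were at least 2-fold brighter in replicate 2 than in replicate 1, as were 16.9% of all genes at that level. In +N the counts were 2 of 19 and 1 of 18, against 3.8% of all genes. The median ratio of replicate 2 to replicate 1 in −N was 1.87-fold for aquaporins, 1.93-fold for potassium transporters and 1.46-fold for all genes. In +N the medians were 1.41-, 1.48- and 1.31-fold. Within the aquaporins, *PIP* genes had 6 of 8 at least 2-fold brighter in replicate 2 in −N, with a median of 2.17-fold. The ratio was 3.23-fold for *NIP2-2*, 3.22-fold for *PIP2-6* and 2.94-fold for *TIP2-1*, and *HAK17* ran the other way, at 0.137-fold. These counts are descriptions over genes of the same arrays, which are not independent of one another.

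**Figure D5:**
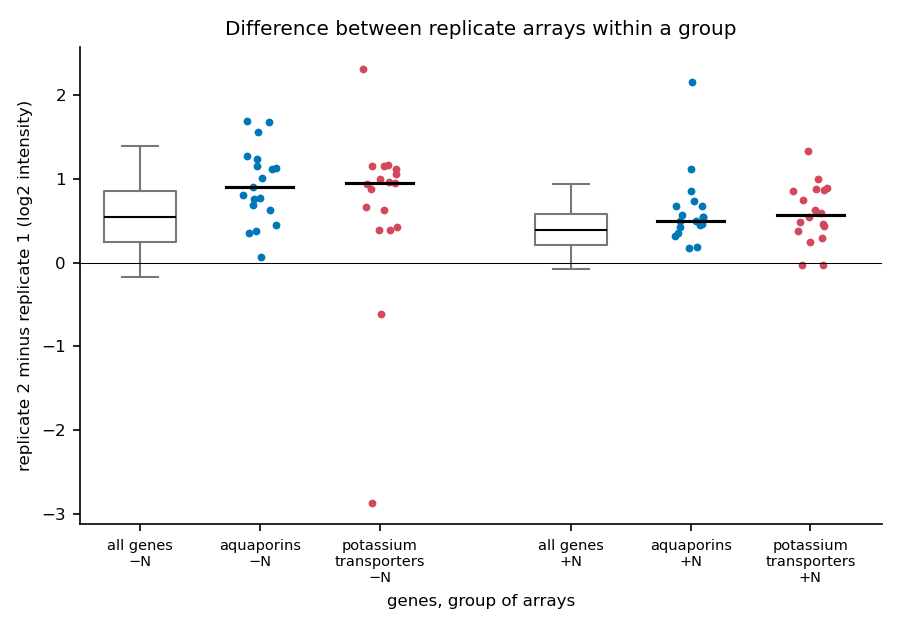
The difference between replicate 2 and replicate 1 in log2 intensity (vertical axis) is shown within −N and within +N, for all genes with a mean intensity of at least 32 as boxes with whiskers at the 5th and 95th percentiles, and for the 19 aquaporins and 18 potassium transporters as points with a black line at the median. The medians of both groups lie above that of all genes, and those in −N lie above those in +N.

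Array-wide facts bear on these values. Over all rice probe sets, the median intensity was 17.8 and 25.2 on the −N arrays of replicates 1 and 2, and 17.1 and 25.4 on the +N arrays, so that the median was higher on the arrays of replicate 2 in both groups. Of 6 root marker genes 6 were measured, 0 were called, and their summed intensities were 8268 and 12300 in −N and 9436 and 10770 in +N, with *SCR1* dim on every array. Most of that sum was *Lsi1*, at 7224 to 9869, which is the member *NIP2-1*, so it is no independent check of the tissue. Leaf photosynthesis markers, 5 of 7 measured and 0 called, summed to 8684 and 14050 in −N and 11430 and 13110 in +N. *CAB2R* made up most of that sum, at 7870 to 11220, and *RBCS1* was at the lower limit on 3 arrays. The leaf marker *rbcS* was lowest on the −N array of replicate 1, at 304 against 873 to 1303 on the others, and *rca* likewise, at 354 against 895 to 1241. The part of these differences in the spread of the members was not tested.

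Of the 12 members with several probe sets, 8 had all of them above the dim limit. Log2 changes had opposite signs in 2 of these 8, *PIP2-1* and *HAK10*, both with changes near 0, and the widest range within a gene was 0.55, in *TIP2-1*. In the other 4 (*TIP4-1*, *HAK3*, *HAK5* and *HAK22*) at least 1 probe set was dim, such as the second one of *HAK5* at 4.48 to 5.57, so their probe sets could not be compared. For 9 members (*NIP2-2*, *PIP2-1*, *TIP2-2*, *TIP4-2*, *AKT1*, *HAK1*, *HAK3*, *HAK15* and *HAK22*) the manufacturer marks the probe set used as one that may bind other transcripts too. For another 4 (*PIP2-2*, *TIP2-1*, *TIP3-1* and *HAK23*) its probes are marked as shared between similar transcripts. The values of these 13 genes are uncertain at the level of the single gene.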

How the data were processed

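Biotin-labelled cRNA from roots was hybridized by the authors to Affymetrix Rice Genome Arrays, and their deposited table holds linear probe set intensity, 1 column for each of 4 arrays, without pooling. GCOS and RMA are named in the submitters' processing notes, without their roles or versions, and how the arrays were normalized is not given in the sources. From 57381 probe sets, 187 control sets were left out, and the other 57194 were floored at 5.16 (the 5th percentile), converted to log2 and fitted with limma 3.58.1 (R 4.3.3), +N against −N, without further scaling. Thresholds were a 2-fold change and an unadjusted p under 0.05, as the study's methods give, with Benjamini-Hochberg adjusted counts beside them. The fit was tested on simulated data.

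Probe sets were named by the platform annotation and a RefSeq gene table of another assembly, so no coordinates are given. Probe sets of several genes were not used. The text names, in each subfamily, the genes with the highest and lowest change at a mean log2 of at least 5, and the 5 smallest p in each group, 20 genes in all. Members, lists and this rule were chosen with earlier results of these data known. List names for proton pumps matched only a photosystem gene and were dropped. Alternatives covered scaling, the filter on dim probe sets, moderation, low values, the choice of probe set, thresholds, the replicate number as a block and leaving out each array. Precision is limited by the 4 arrays.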

Additional observations from a re-analysis of the deposited data

How the results depend on the processing

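Across both scalings, both other treatments of low values, other moderation and both other ways to represent a gene by its probe sets, 0 aquaporins were called, and the aquaporin median stayed between −0.10 and −0.06 on the log2 scale. The exception was leaving out single arrays, where some members of both groups met the thresholds for a call. Without −N replicate 1, the log2 changes of *NIP2-2*, *PIP2-6*, *PIP2-8* and *TIP2-1* were −1.46, −1.21, −1.19 and −1.30, and that of *HAK17* was 3.15. Without −N replicate 2, that of *AKT1* was 1.26. Each of those fits left 1 array in −N. With single arrays left out, the aquaporin median ran from −0.48 to 0.34 and the potassium transporter median from −0.32 to 0.54. In the same fits the median over all probe sets ran from −0.18 to 0.18. The potassium transporter count was 1 with the arrays brought to one median and 1 with dim probe sets left out (*HAK16* in both). Over all features, those fits called 358 of 57194 and 316 of 24396 probe sets. It was 2 at 2-fold with no p (*HAK16* and *HAK17*). In fits chosen after seeing the data, with arrays at a common median and an array left out as well, some aquaporins moved past 2-fold. Without −N replicate 1, the log2 changes of *NIP2-2* and *TIP2-1* were −1.18 and −1.02. Without +N replicate 1, that of *NIP1-1* was 1.12. Potassium transporters called higher in these fits were 2 without −N replicate 1 (*HAK16* and *HAK17*), 2 without −N replicate 2 (*AKT1* and *HKT1.5*) and 1 without +N replicate 2 (*AKT1*). Of these, *HAK17* had an adjusted p of 0.0262 in limma.

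Over all probe sets 274 were called, 171 with an ordinary linear model, 573 at 1.5-fold, 570 at 2-fold with no p and 0 after adjustment. Leaving out single arrays gave 194 to 772, and with arrays at one median as well 1224 without −N replicate 1, 936 without −N replicate 2 and 504 without +N replicate 2. The causes of these differences were not tested.

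Of the 20 genes named by rule, 11 changed sign without an array: *HKT1.5* ran from −0.81 to 1.51, *NIP1-1* from −0.78 to 1.38, *NIP2-2* from −1.46 to 0.24, *PIP1-2* from −0.42 to 0.27, *PIP1-3* from −0.26 to 0.89 and *PIP2-4* from −0.19 to 0.82. *PIP2-6* ran from −1.21 to 0.47, *SIP1-1* from −0.30 to 0.052, *SIP2-1* from −0.60 to 0.15, *TIP2-1* from −1.30 to 0.25 and *TIP4-1* from −0.092 to 0.40.

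The arrays share only a replicate number. The differences between replicates 2 and 1 in −N and in +N correlated at 0.56 across all probe sets of these arrays. Across the 13905 genes with a mean intensity of at least 32, the correlation was 0.38. With the replicate number as a block 309 probe sets, 0 aquaporins and 0 potassium transporters were called.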
